A study of Homo sapiens with 10 samples.

Results

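Transcripts of 47 DNA repair and damage signalling genes were followed in AsPC-1 cells, an established human pancreatic ductal adenocarcinoma line, after glutamine starvation. The genes were taken from a named list that covers the damage kinases and checkpoint clamp, homologous recombination, the ends of double-strand breaks, end joining, mismatch repair, the Fanconi anaemia pathway with its helicases, base excision repair and nucleotide excision repair. All 47 were found by symbol among the 36498 genes of the deposited expression table. The starved group (5 libraries) had been kept for 24 h in RPMI medium without glutamine, with 10% dialysed foetal bovine serum. The control group (5 libraries) had been kept for 24 h in complete RPMI medium, also with 10% serum. Dialysis is named for the starved medium and not for the control medium, so lack of glutamine and dialysis of the serum cannot be told apart. All libraries came from 1 cell line, and nothing in the labels says that they came from separate cultures, so p-values measure only the spread between these libraries, which may be technical.

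Cells repair DNA by several pathways that recognise different lesions. Double-strand breaks are sensed by ATM and by the MRN complex (MRE11, RAD50 and NBN), and are joined directly by the Ku and DNA-PK machinery or copied from a sister chromatid by homologous recombination, which works mainly in S and G2 phase. Stretches of single-stranded DNA at stalled forks activate ATR and CHEK1, crosslinks call on the Fanconi anaemia proteins, and damaged or mispaired bases are removed by excision repair and mismatch repair.

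Libraries tagged transcripts near their 3′ ends, and the deposited values are counts scaled to a total of 1000000 per library (CPM). The whole counts behind them amounted to 164008 to 593248 per starved library and 141763 to 474619 per control library. Mean depth was 272485 counts in starved and 323522 counts in control libraries (two-sided exact permutation p = 0.595, smallest possible p = 0.00794), and median depth was 201642 and 395645 counts. Without starved replicate 1, the deepest library, the starved mean was 192294 counts (exact permutation p = 0.19). At this depth 1 count was worth 1.69 to 7.05 CPM, and a median member held 26 counts over the 5 starved libraries and 72 counts over the 5 control libraries. All 7 epithelial markers were detected and 4 of them (KRT8, KRT18, KRT19 and EPCAM) fell, with a summed level of the list of 2671 to 2956 CPM in starved and 12188 to 13267 CPM in control libraries. Of the fibroblast markers COL3A1 and DCN were at 0 in all libraries, as were the endothelial marker CDH5 and the acinar markers PRSS1, CPA1 and CELA3A. The leukocyte marker PTPRC had 1 count in starved and 2 counts in control libraries. Markers of other cell types that passed the test were LUM (36 counts in starved, 181 in control), LYZ (13 and 114 counts) and CD68 (114 and 72 counts), and their part in the results was not tested.

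Starvation was accompanied mainly by lower levels of repair transcripts, with 4 members moving the other way. With limma on log2(CPM + 1), 26 of the 46 tested members were called lower in starved cells at an adjusted p under 0.05 and 4 were called higher, while 16 were not called. That is 56.5% of tested members lower and 8.70% higher, against 26.1% lower and 17.2% higher (43.3% in either direction) among all 11202 genes tested. The members were chosen with earlier results of these data known, and the part of that choice in the difference was not tested. The members called higher were HUS1 (ENSG00000136273.11), XRCC4 (ENSG00000152422.15), LIG4 (ENSG00000174405.13) and ERCC1 (ENSG00000012061.15). All 5 starved libraries lay below all 5 control libraries for 21 members and above them for 4, and the groups overlapped for 22. Among all tested genes the starved libraries lay wholly below for 17.9% and wholly above for 12.5%.

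The median log2 change of the tested members was -1.04, against -0.22 over all tested genes, so the whole table was already shifted towards lower values in starved cells on this scale. Quantile normalization moved the median of all genes to -0.02 and that of the members to -0.77. Of the members called lower, 22 averaged under 0.5 of the control mean and 14 under 0.25. The summed level of the 47 genes was 2388 to 2673 CPM in starved libraries and 3636 to 4084 CPM in control libraries. These are shares of each bulk library, so fewer cells of a kind and less RNA per cell cannot be told apart. Within groups, the chi-square per degree of freedom of a member's counts had a median of 1.2 and ranged from 0.104 to 2.69, where counting error alone gives about 1. In the 20 pairs of replicate libraries it was 1.26 to 1.88 over genes with at least 20 counts in a pair (3402 to 6744 genes). Replicates thus scattered more than counting alone would give for such genes. The figure for members had no such cut, so these measures are not alike.

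The filter on a mean of at least 5 CPM over all libraries left out XRCC1 alone, which had 3 counts in starved and 12 counts in control libraries. Means reached 5 CPM in both groups for 39 members, in control libraries alone for 7 (XRCC2, PMS2, XRCC1, UNG, ERCC2, XPA and DDB2) and in starved libraries alone for LIG4. Genes on the opposite strand overlap the 3′ ends of further members, among them RAD9A (PPP1CA), TP53BP1 (TUBGCP4), XRCC3 (KLC1), MSH6 (FBXO11), FANCA (ZNF276), FANCI (POLG) and ERCC2 (KLC3), and without knowledge of strand their values are uncertain to that extent. Without a filter, all 47 were tested and 24 were called lower and 4 higher, against 10.5% lower and 6.87% higher of all genes with a count. On the recovered counts, edgeR's quasi-likelihood test called 24 lower and 5 higher (all genes: 25.6% and 22.2%), and DESeq2 called 23 lower and 4 higher (all genes: 21.4% and 18.1%). The fitted change by edgeR was nearer to 0 by over 1.5-fold for 8 of the 30 called members (CHEK1, XRCC2, MSH3, PMS2, FANCI, BLM, XPA and DDB2) and further from 0 by that much for none.

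**Figure D1:**
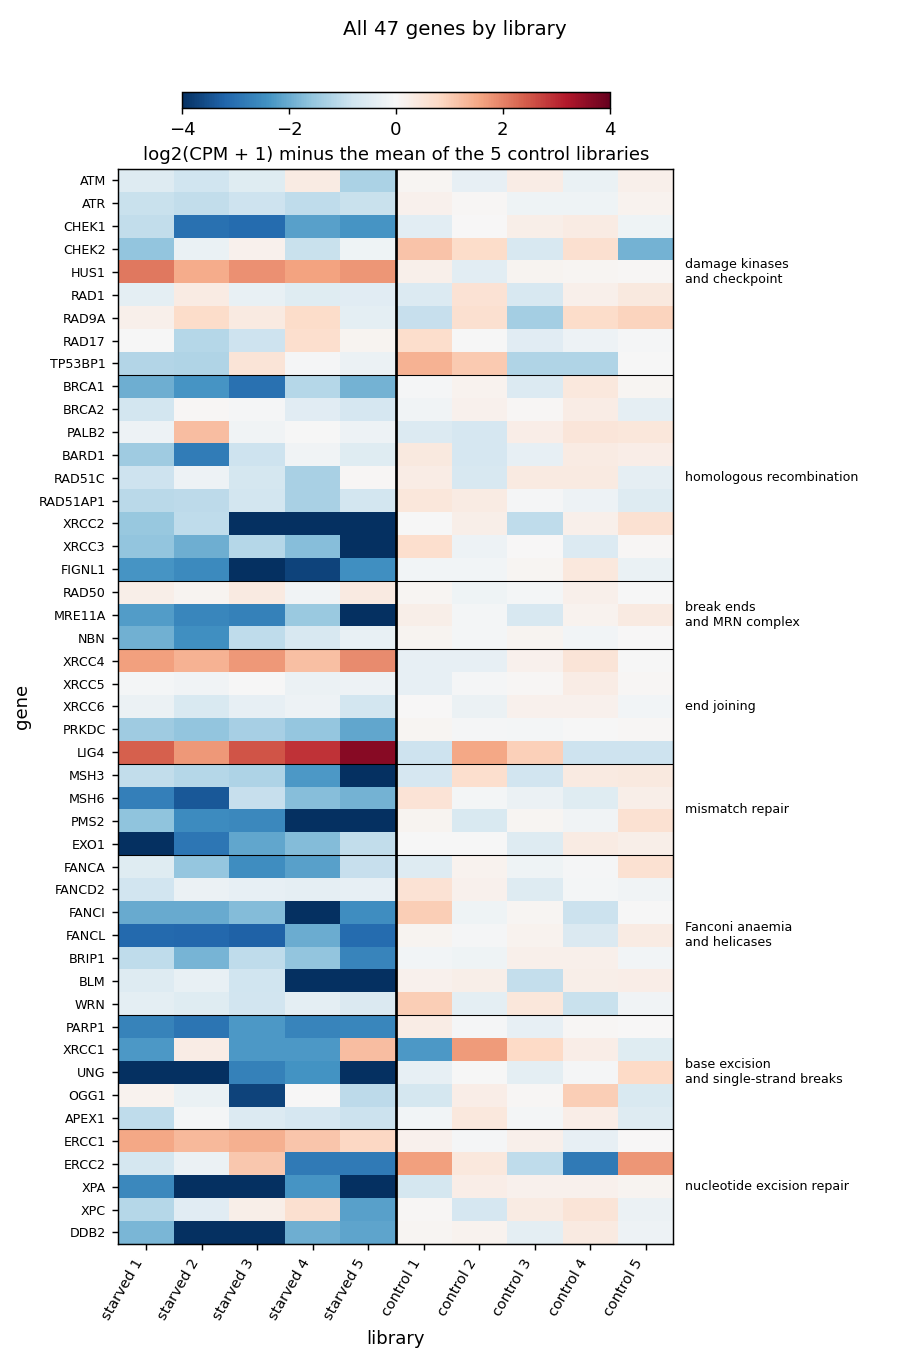
Each row is a gene, grouped by role, and each column a library, with the 5 starved libraries left of the 5 control libraries. Colour is log2(CPM + 1) minus the mean of the 5 control libraries, cut off at -4 and 4; rows of HUS1, XRCC4, LIG4 and ERCC1 are red in all starved libraries, and mismatch repair genes are blue.

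Among the damage kinases and checkpoint genes, 2 of the 9 tested members fell (ATR and CHEK1), 1 rose (HUS1) and 6 were not called; these shares, 22.2% lower and 11.1% higher, are below those over all tested genes. HUS1, a subunit of the ring-shaped 9-1-1 clamp that is loaded at damaged DNA, had 162, 104, 135, 116 and 127 CPM in starved replicates 1 to 5, against 42.3, 27.4, 39.8, 39.4 and 37.9 CPM in control replicates 1 to 5. Every starved library lay above every control library. The starved mean was 3.45 times the control mean (129 ± 21.8 CPM in starved and 37.4 ± 5.79 CPM in control libraries; SD, n = 5 each), a log2 change of 1.76 (SE 0.21, limma adjusted p = 7.99e-07). The GENCODE annotation for GRCh38 lists no gene that overlaps HUS1 or LIG4.

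The other subunits of the clamp did not pass the test. RAD1 averaged 43.8 ± 11.8 CPM in starved and 54.6 ± 20.1 CPM in control libraries, and RAD9A averaged 19.1 ± 5.87 CPM in starved and 17.5 ± 10.7 CPM in control libraries (limma adjusted p = 0.494 and 0.653). RAD17, the subunit of the loader that places the clamp, averaged 31.8 ± 16.0 CPM in starved and 35.5 ± 12.2 CPM in control libraries (limma adjusted p = 0.635). Within a library, the ratio of HUS1 to RAD1 counts was 1.62 to 4.17 in starved cells and 0.35 to 1.23 in control cells, without overlap. The ratio of HUS1 to RAD9A overlapped between the groups, at 4.2 to 12 in starved and 1.18 to 8 in control libraries. Such pairs were chosen after the values were seen, and since transcripts may be tagged with unequal efficiency, only the difference of a ratio between groups is described. In all 14 pairs were computed, of which 8 were apart and 6 overlapped. Among those apart, ERCC1 to XPA is undefined in 3 starved libraries, where XPA held no count. No such share was computed over other pairs of genes. CHEK1 to ATR overlapped at 0.33 to 1.56 in starved and 1.12 to 2.44 in control libraries, and BRCA2 to PALB2 at 1.4 to 3.5 in starved and 1.82 to 6 in control libraries.

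CHEK1, the kinase that carries the ATR signal and restrains entry into mitosis, had 42.1, 9.92, 9.30, 18.3 and 15.9 CPM in starved libraries, against 63.5, 86.4, 99.4, 108 and 75.8 CPM in control libraries. Starved replicate 1 was well above the other starved libraries, yet still below the lowest control library. CHEK1 averaged 0.221 of its control mean (19.1 ± 13.4 CPM in starved and 86.7 ± 17.9 CPM in control libraries), with a log2 change of -2.31 (SE 0.36, limma adjusted p = 2.35e-05). ATR itself, the kinase activated by single-stranded DNA, had 27.0, 24.8, 27.9, 24.4 and 26.5 CPM in starved libraries, against 56.4, 52.7, 44.7, 44.3 and 55.6 CPM in control libraries. The starved libraries were nearly level with each other, and each lay below all control libraries. Its log2 change was -0.93 (SE 0.28, limma adjusted p = 0.0101), which became -0.85 with an adjusted p of 0.0589 without control replicates 1 and 2. The labels give these libraries the indices 76 and 88, while the other 8 run from 5 to 89 in steps of 12; no label calls them a batch.

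ATM and CHEK2 were not called. ATM, the kinase that responds to breaks, averaged 38.5 ± 17.3 CPM in starved and 53.6 ± 9.97 CPM in control libraries (limma adjusted p = 0.15, 95% interval of the log2 change -1.18 to 0.08). Starved replicate 4 held 67.1 CPM of ATM, above every control library, and without it limma called ATM lower (log2 change -0.77, adjusted p = 0.0388). CHEK2, the kinase downstream of ATM, averaged 8.79 ± 4.12 CPM in starved and 15.8 ± 10.5 CPM in control libraries, and TP53BP1, which binds chromatin beside breaks, averaged 10.3 ± 5.67 CPM in starved and 17 ± 13.7 CPM in control libraries. The groups overlapped for both, and with 10 to 26 counts a group their intervals reached from -1.93 to 0.83 for CHEK2 and from -1.79 to 0.91 for TP53BP1 on the log2 scale.

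**Figure D2:**
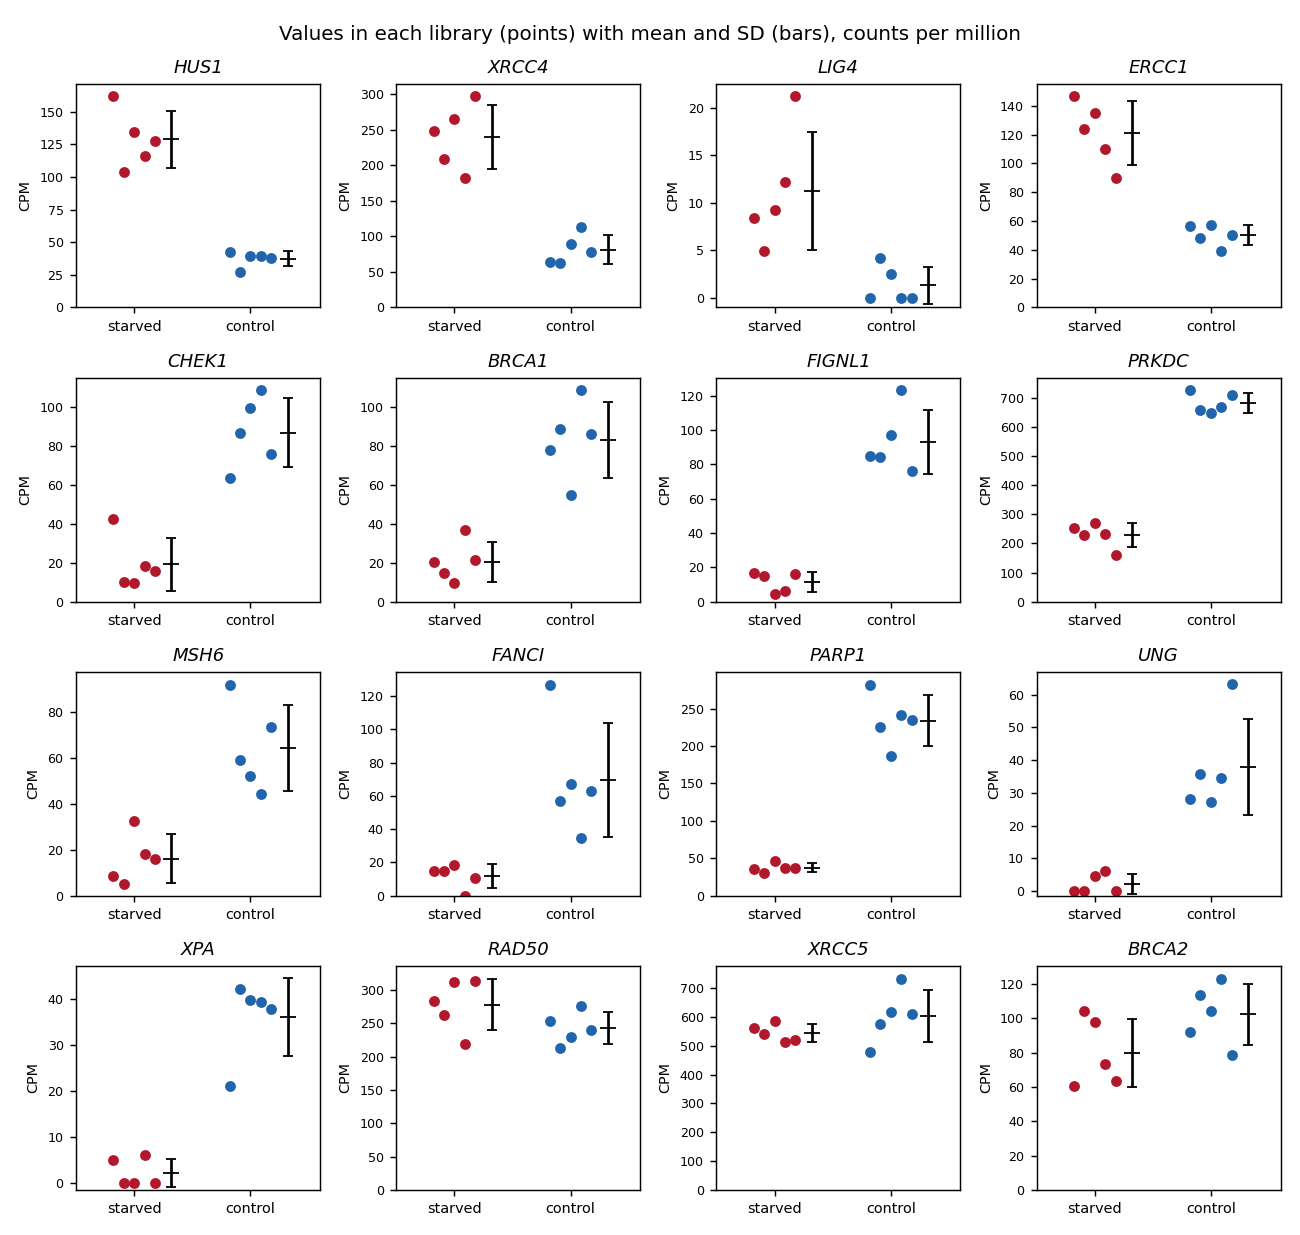
CPM of 16 of the genes in each library (points; starved left, control right) with the mean and SD of each group (bars, n = 5). The top row holds the 4 genes that rose, HUS1, XRCC4, LIG4 and ERCC1; RAD50, XRCC5 and BRCA2, at the end of the bottom row, were not called and their groups overlap.

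Homologous recombination genes were lower as far as they passed the test: 6 of the 9 tested members fell and none rose. BRCA2, PALB2 and RAD51C were not called. The share lower was 66.7%, against 26.1% of all tested genes. FIGNL1, an ATPase of the recombination pathway, had 16.9, 14.9, 4.65, 6.10 and 15.9 CPM in starved libraries, against 84.6, 84.3, 96.9, 123 and 75.8 CPM in control libraries. All starved libraries lay far below the lowest control library. The starved mean was 0.126 of the control mean (11.7 ± 5.82 CPM in starved and 92.9 ± 18.4 CPM in control libraries), a log2 change of -3.02 (SE 0.37, limma adjusted p = 1.15e-06).

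BRCA1, the ubiquitin ligase that promotes resection and recombination at breaks, had 20.2, 14.9, 9.30, 36.6 and 21.2 CPM in starved libraries, against 77.6, 88.5, 54.7, 108 and 85.9 CPM in control libraries. The highest starved library remained below the lowest control library. BRCA1 averaged 0.246 of its control mean, with a log2 change of -2.06 (SE 0.34, limma adjusted p = 3.87e-05). Its obligate partner BARD1 averaged 39.8 ± 22.3 CPM in starved and 77.8 ± 23.3 CPM in control libraries, and here the groups overlapped, with starved libraries from 9.92 to 67.1 CPM and control libraries from 46.4 to 98.8 CPM. BARD1 was called at a limma adjusted p of 0.021, but the call was lost in 4 of the 10 fits that left out 1 library, at adjusted p of 0.0529 to 0.0575 (without starved replicate 2, or without control replicate 1, 4 or 5). The ratio of BRCA1 to BARD1 counts overlapped between the groups, from 0.22 to 1.5 in starved and from 0.79 to 1.91 in control libraries.

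XRCC2, which works early in recombination, had 6.74, 9.92, 0, 0 and 0 CPM in starved libraries, against 21.2, 25.3, 9.94, 24.6 and 32.9 CPM in control libraries. Starved replicates 3, 4 and 5 held no count, and the groups did not overlap. The log2 change was -3.20 (SE 0.80, limma adjusted p = 0.00266), and -2.20 by edgeR. XRCC3, which also acts in recombination, averaged 5.42 ± 3.42 CPM in starved and 22.8 ± 7.67 CPM in control libraries without overlap (limma adjusted p = 0.0113), and RAD51C, which joins XRCC3 in a complex, averaged 31.8 ± 11.8 CPM in starved and 48.0 ± 14.4 CPM in control libraries with overlap (limma adjusted p = 0.15). RAD51AP1, which stimulates strand exchange, had 28.7, 29.8, 37.2, 24.4 and 37.2 CPM in starved libraries, against 84.6, 78.0, 59.6, 54.1 and 43.0 CPM in control libraries, again without overlap (log2 change -0.98, SE 0.28, limma adjusted p = 0.00672). Without control replicates 1 and 2 the log2 change of XRCC3 was -2.02 (limma adjusted p = 0.0674), against -2.18 with all libraries, and that of RAD51AP1 was -0.72 (limma adjusted p = 0.0955).

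BRCA2, a mediator of strand exchange, stayed within the spread. It had 60.7, 104, 97.6, 73.2 and 63.7 CPM in starved libraries, against 91.7, 114, 104, 123 and 78.4 CPM in control libraries, and starved replicates 1, 4 and 5 lay below all control libraries while the other two lay within their range. The log2 change of -0.37 had a 95% interval of -0.80 to 0.06 (limma adjusted p = 0.154). PALB2, which links BRCA1 to BRCA2, averaged 37.3 ± 20.8 CPM in starved and 32.9 ± 12.1 CPM in control libraries (limma adjusted p = 0.803), with starved replicate 2 at 74.4 CPM and the other starved libraries at 26.5 to 30.5 CPM.

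In the MRN complex, which tethers and trims break ends, 2 of the 3 members fell and the third was not called. Its share of 66.7% lower, against 26.1% of all tested genes, rests on 3 members. MRE11A, the nuclease, had 6.74, 4.96, 4.65, 12.2 and 0 CPM in starved libraries, against 42.3, 33.7, 22.4, 39.4 and 45.5 CPM in control libraries. The groups did not overlap, and the log2 change was -2.85 (SE 0.63, limma adjusted p = 0.000964). NBN, the subunit that recruits ATM, had 21.9, 14.9, 41.8, 54.9 and 69.0 CPM in starved libraries, against 91.7, 80.1, 92, 78.7 and 85.9 CPM in control libraries. Starved libraries ranged widely and control libraries were nearly level, and the groups did not overlap (log2 change -1.26, SE 0.33, limma adjusted p = 0.00358).

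RAD50, the coiled-coil ATPase of the complex, went with neither partner. It had 283, 263, 311, 219.5 and 313 CPM in starved libraries, against 254, 213, 229, 276 and 240.1 CPM in control libraries, with overlap and a log2 change of 0.19 (95% interval -0.08 to 0.46, limma adjusted p = 0.241). The quasi-likelihood test of edgeR called it higher (adjusted p = 0.0359). The ratio of MRE11A to RAD50 counts was 0 to 0.06 in starved and 0.10 to 0.19 in control libraries, and that of NBN to RAD50 was 0.06 to 0.25 in starved and 0.29 to 0.40 in control libraries.

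**Figure D3:**
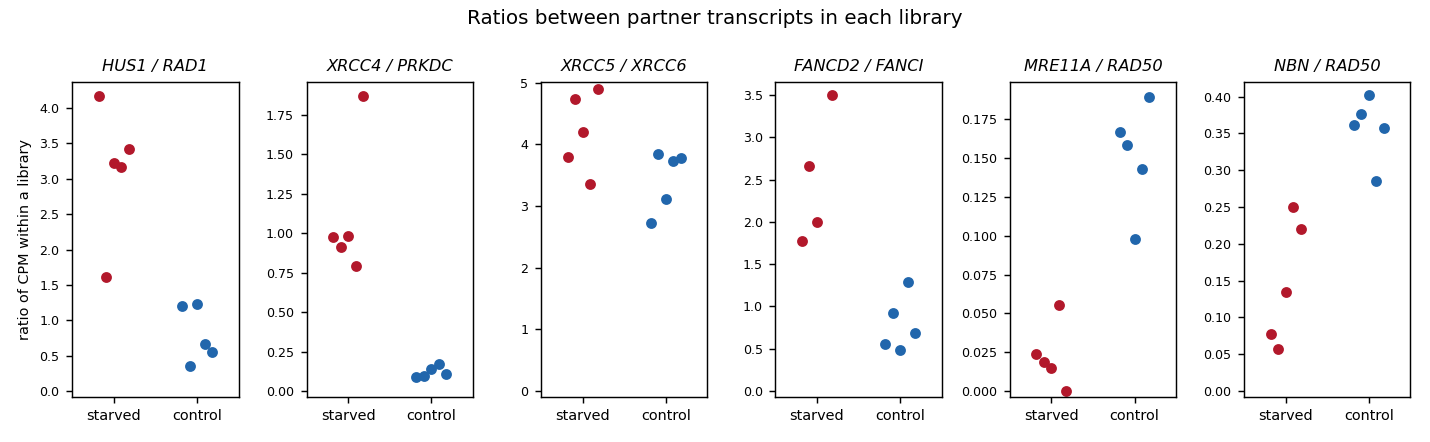
Ratio of CPM between transcripts of proteins that work together, in each library (points; starved left, control right; the FANCD2 to FANCI ratio of starved replicate 4 is not defined, since FANCI held no count). The groups are apart for the ratios drawn except XRCC5 to XRCC6, at 3.36 to 4.90 in starved and 2.72 to 3.85 in control libraries.

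In end joining 2 of the 5 tested members rose (XRCC4 and LIG4), 2 fell (PRKDC and XRCC6), and XRCC5 was not called. Both shares were 40%, on 5 genes, against 17.2% higher and 26.1% lower among all tested genes. XRCC4, the scaffold that holds the ligase at broken ends, had 248, 208, 265, 183 and 297 CPM in starved libraries, against 63.5, 63.2, 89.5, 113 and 78.4 CPM in control libraries. Every starved library lay above every control library. The starved mean was 2.95 times the control mean (240.2 ± 45.3 CPM in starved and 81.5 ± 20.8 CPM in control libraries), a log2 change of 1.56 (SE 0.18, limma adjusted p = 6.05e-07). In the same annotation XRCC4 on chromosome 5 overlaps TMEM167A on the opposite strand, at 699 CPM in starved and 168 CPM in control libraries, and an intronic pseudogene, AC094085.1. Whether the counting used strand is not given in the sources used here, so the part of these neighbours in the XRCC4 value was not tested.

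LIG4, the ligase bound by XRCC4, was rare. It had 8.43, 4.96, 9.30, 12.2 and 21.2 CPM in starved libraries, against 0, 4.21, 2.49, 0 and 0 CPM in control libraries, that is 14 counts in the 5 starved and 3 counts in the 5 control libraries. The depth-scaled ratio of these sums was 5.54, with an exact 95% counting interval of 1.55 to 30.1. All starved libraries held LIG4 and 3 control libraries held none; the limma adjusted p was 0.00949, and the call held in the alternatives that tested it, at adjusted p up to 0.047.

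PRKDC, the catalytic subunit of DNA-PK, had 255, 228, 269.6, 232 and 159 CPM in starved libraries, against 727, 659, 649, 669 and 710.2 CPM in control libraries. The groups were far apart, and PRKDC was one of the better counted members, with 323 counts in starved and 1094 counts in control libraries. Its starved mean was 0.335 of the control mean (229 ± 42.4 CPM in starved and 683 ± 33.8 CPM in control libraries), a log2 change of -1.60 (SE 0.13, limma adjusted p = 1.44e-09). The ratio of XRCC4 to PRKDC counts was 0.79 to 1.87 in starved and 0.09 to 0.17 in control libraries.

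The Ku subunits, which cap broken ends before DNA-PK binds, differed little. XRCC5 (Ku80) had 563, 541, 586, 512 and 520.2 CPM in starved libraries, against 479.7, 575, 619, 733 and 612 CPM in control libraries, with overlap and a log2 change of -0.14 (95% interval -0.36 to 0.09, limma adjusted p = 0.316). XRCC6 (Ku70) had 148, 114, 139, 152 and 106 CPM in starved libraries, against 176, 149.6, 199, 197 and 162 CPM in control libraries. One starved library lay above the lowest control library for XRCC6, and its log2 change of -0.42 was called at a limma adjusted p of 0.0316. That call was lost in 9 of 21 alternatives, among them TMM scaling (adjusted p = 0.0954), edgeR (0.158) and DESeq2 (0.199).

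The 4 mismatch repair members all fell and none of them overlapped between groups. Among all tested genes 26.1% fell, and for 17.9% the starved libraries lay wholly below. MSH6, which recognises single mispairs, had 8.43, 4.96, 32.5, 18.3 and 15.9 CPM in starved libraries, against 91.7, 59.0, 52.2, 44.3 and 73.3 CPM in control libraries. Its starved mean was 0.25 of the control mean (log2 change -2.13, SE 0.42, limma adjusted p = 0.000341). EXO1, the exonuclease that removes the mispaired strand, had 0, 4.96, 9.30, 12.2 and 21.2 CPM in starved libraries, against 42.3, 42.1, 29.8, 54.1 and 50.6 CPM in control libraries, a log2 change of -2.63 (SE 0.64, limma adjusted p = 0.00225).

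MSH3, which recognises insertion and deletion loops, had 16.9, 14.9, 13.9, 6.10 and 0 CPM in starved libraries, against 21.2, 54.8, 19.9, 44.3 and 45.5 CPM in control libraries. The gap between the groups was narrow, from 16.9 CPM in the highest starved library to 19.9 CPM in the lowest control library, and the log2 change was -2.16 (limma adjusted p = 0.0129). Without control replicates 1 and 2 it was -2.17, with an adjusted p of 0.0514. PMS2, the endonuclease subunit, had 10.1, 4.96, 4.65, 0 and 0 CPM in starved libraries, against 35.3, 21.1, 34.8, 29.5 and 50.6 CPM in control libraries (log2 change -3.38, SE 0.71, limma adjusted p = 0.000602; -2.39 by edgeR). PMS2 has near-identical pseudogene copies, several of them listed in the table, so the counting may have split its reads and its value is uncertain.

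The promoters of these genes are shown because each of the 4 holds an E2F-type word, a letter pattern bound by the E2F factors that drive S-phase genes. Promoters were the 250 bases before to 50 bases after the first start that RefSeq lists for a gene (GRCh38.p14), and 41 of the 47 genes matched. The words searched on both strands were TTTCCCGC, TTTGGCGC, TTTCGCGC and TTTGCCGC, and capitals mark the matches; in MSH3 a pair of matches overlaps. The sequences are chr5:80654402-80654701 on the plus strand (MSH3), chr2:47782895-47783194 on the plus strand (MSH6), chr7:6009057-6009356 on the minus strand (PMS2) and chr1:241847954-241848253 on the plus strand (EXO1), each 5′ to 3′.
MSH3: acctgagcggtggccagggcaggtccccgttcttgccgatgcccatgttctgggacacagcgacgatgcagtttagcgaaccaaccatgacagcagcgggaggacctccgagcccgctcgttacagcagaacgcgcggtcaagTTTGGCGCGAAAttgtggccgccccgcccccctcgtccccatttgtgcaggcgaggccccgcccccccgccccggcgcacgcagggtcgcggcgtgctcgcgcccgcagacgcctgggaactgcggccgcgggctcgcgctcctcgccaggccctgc
MSH6: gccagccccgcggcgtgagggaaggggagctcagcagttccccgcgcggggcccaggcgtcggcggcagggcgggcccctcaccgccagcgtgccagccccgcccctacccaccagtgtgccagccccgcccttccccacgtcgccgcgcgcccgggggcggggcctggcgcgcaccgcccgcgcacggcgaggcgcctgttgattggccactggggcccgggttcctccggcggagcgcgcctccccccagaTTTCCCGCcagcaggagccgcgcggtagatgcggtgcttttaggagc
PMS2: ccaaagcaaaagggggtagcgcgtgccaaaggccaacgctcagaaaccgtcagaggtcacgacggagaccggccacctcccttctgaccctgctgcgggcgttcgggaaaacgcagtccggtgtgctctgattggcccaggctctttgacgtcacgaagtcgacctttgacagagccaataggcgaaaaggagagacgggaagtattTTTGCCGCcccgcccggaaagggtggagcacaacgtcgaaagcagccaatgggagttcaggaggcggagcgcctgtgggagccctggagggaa
EXO1: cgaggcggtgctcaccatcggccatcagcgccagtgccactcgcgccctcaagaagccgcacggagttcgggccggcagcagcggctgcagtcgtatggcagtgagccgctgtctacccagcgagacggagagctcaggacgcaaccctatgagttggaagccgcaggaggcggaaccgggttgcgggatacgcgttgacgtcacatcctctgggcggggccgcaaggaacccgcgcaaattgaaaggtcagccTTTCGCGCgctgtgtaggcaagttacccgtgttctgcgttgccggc

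Such a word was present in 9 of the 41 matched promoters (22.0%), against 3.33% of all 27305 promoters in the RefSeq table and 5.55% of the 7833 promoters of tested genes. The other 5 were those of XRCC2, XRCC6, FANCA, FANCD2 and XPC. By outcome, 7 of 23 matched members called lower held one (30.4%), 2 of 14 not called, and none of the 3 called higher. A CCAAT box (CCAAT, both strands) stood in 22 of the 41 (53.7%), against 36.8% of promoters of tested genes. The cell cycle homology word TTTGAA was in 3 of 41 (7.32%), against 9.60% of promoters of tested genes, and the ATF4-type word TGATGNAA in 1 of 41 (2.44%), against 1.6%. These are matches of letters, and whether any factor binds there was not measured. Which start of a gene these cells used was not measured either, so a window may miss the promoter in use. Among members that rose, the promoter of XRCC4 (chr5:83077297-83077596, plus strand, GRCh38.p14) is shown beside them because it holds a CCAAT box, in capitals on the reverse strand, and no E2F-type word.
XRCC4: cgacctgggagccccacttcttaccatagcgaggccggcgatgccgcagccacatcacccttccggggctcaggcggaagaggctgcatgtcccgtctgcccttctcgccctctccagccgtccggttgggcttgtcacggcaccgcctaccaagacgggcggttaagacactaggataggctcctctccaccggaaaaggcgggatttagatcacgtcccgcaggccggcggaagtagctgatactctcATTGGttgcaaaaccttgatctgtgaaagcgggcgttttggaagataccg

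Of the Fanconi anaemia genes and helicases, 5 of the 7 tested members fell (71.4%, against 26.1% of all tested genes) and none rose. FANCD2 and WRN were not called. FANCL, the ubiquitin ligase subunit that marks FANCD2 and FANCI, had 5.06, 4.96, 4.65, 12.2 and 5.31 CPM in starved libraries, against 56.4, 50.6, 57.2, 34.4 and 65.7 CPM in control libraries. Starved replicate 4 stood above its group and still lay below every control library. The starved mean was 0.122 of the control mean (log2 change -2.91, SE 0.44, limma adjusted p = 1.73e-05). At its 3′ end FANCL overlaps VRK2 on the opposite strand, which was higher in starved cells (193 CPM in starved, 101 CPM in control libraries).

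FANCI, which is ubiquitinated together with FANCD2, had 15.2, 14.9, 18.6, 0 and 10.6 CPM in starved libraries, against 127, 56.9, 67.1, 34.4 and 63.2 CPM in control libraries. The groups did not overlap, and the log2 change was -2.85 (SE 0.63, limma adjusted p = 0.000977). FANCD2 had 27.0, 39.7, 37.2, 36.6 and 37.2 CPM in starved libraries, against 70.5, 52.7, 32.3, 44.3 and 43.0 CPM in control libraries. Here the groups overlapped and the log2 change was -0.41 (95% interval -1.0 to 0.18, limma adjusted p = 0.26). The ratio of FANCD2 to FANCI was 1.78 to 3.50 in the 4 starved libraries where it is defined and 0.48 to 1.29 in control libraries.

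BRIP1, the helicase that binds BRCA1, had 18.5, 9.92, 18.6, 12.2 and 5.31 CPM in starved libraries, against 35.3, 33.7, 44.7, 44.3 and 35.4 CPM in control libraries, without overlap (log2 change -1.62, SE 0.42, limma adjusted p = 0.00367). FANCA, a subunit of the core complex, had 21.9, 9.92, 4.65, 6.10 and 15.9 CPM in starved libraries, against 21.2, 33.7, 27.3, 29.5 and 48.0 CPM in control libraries. Starved replicate 1 reached just above control replicate 1, and the log2 change of -1.52 (limma adjusted p = 0.0155) became -1.36 (adjusted p = 0.0549) without control replicate 5. BLM, the helicase that dissolves double Holliday junctions, averaged 10.1 ± 9.48 CPM in starved and 26.0 ± 7.62 CPM in control libraries (limma adjusted p = 0.0348), but its groups overlapped and the call was lost in 10 of 20 alternatives, edgeR (adjusted p = 0.0747) and DESeq2 (0.131) among them. WRN, a related helicase, averaged 38.8 ± 4.15 CPM in starved and 62.4 ± 33.1 CPM in control libraries (limma adjusted p = 0.186), with a control group that ranged from 29.5 to 113 CPM.

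In base excision repair 3 of the 4 tested members fell (PARP1, UNG and APEX1) and OGG1 was not called. This share of 75%, against 26.1% of all tested genes, rests on 4 members. PARP1, which senses single-strand breaks and makes poly(ADP-ribose), had 35.4, 29.8, 46.5, 36.6 and 37.2 CPM in starved libraries, against 282, 225, 186, 241 and 235 CPM in control libraries. The groups were separated by a gap from 46.5 to 186 CPM. The starved mean was 0.158 of the control mean (37.1 ± 6.02 CPM in starved and 234 ± 34.3 CPM in control libraries), a log2 change of -2.63 (SE 0.18, limma adjusted p = 2.02e-10), the smallest p among the members.

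UNG, the glycosylase that removes uracil from DNA, had 0, 0, 4.65, 6.10 and 0 CPM in starved libraries, against 28.2, 35.8, 27.3, 34.4 and 63.2 CPM in control libraries. Only 2 counts were found in the 5 starved libraries, against 64 counts in the 5 control libraries, a depth-scaled ratio of 0.0371 with an exact 95% counting interval of 0.00440 to 0.140 (limma adjusted p = 7.91e-05). APEX1, which cuts the abasic site that a glycosylase leaves, had 33.7, 64.5, 46.5, 42.7 and 37.2 CPM in starved libraries, against 63.5, 92.7, 64.6, 83.6 and 48.0 CPM in control libraries. Its groups overlapped, its 3′ end overlaps PIP4P1 on the opposite strand (55.4 CPM in starved, 14.8 CPM in control libraries), and its call at a limma adjusted p of 0.0483 was lost in 14 of 21 alternatives, with adjusted p up to 0.183. OGG1, the glycosylase for oxidised guanine, averaged 8.18 ± 5.53 CPM in starved and 13.3 ± 7.11 CPM in control libraries and was not called (limma adjusted p = 0.306). The ratio of PARP1 to APEX1 was 0.46 to 1.05 in starved and 2.43 to 4.89 in control libraries. XRCC1, the scaffold of single-strand break repair, was too rare to test, and its depth-scaled count ratio was 0.297 (exact 95% counting interval 0.0538 to 1.10).

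In nucleotide excision repair, 2 of the 5 tested members fell (XPA and DDB2), 1 rose (ERCC1) and 2 were not called. These shares, 40% lower and 20% higher on 5 genes, stand against 26.1% and 17.2% of all tested genes. The share higher is near that of all genes. ERCC1, which forms the 5′ nuclease with ERCC4, had 147, 124, 135, 109.8 and 90.2 CPM in starved libraries, against 56.4, 48.5, 57.2, 39.4 and 50.6 CPM in control libraries. Every starved library lay above every control library. The starved mean was 2.40 times the control mean (121 ± 22.0 CPM in starved and 50.4 ± 7.21 CPM in control libraries), a log2 change of 1.24 (SE 0.20, limma adjusted p = 4.08e-05). Its 3′ end overlaps CD3EAP on the opposite strand, at 113 CPM in starved and 90.1 CPM in control libraries, and its locus also overlaps FOSB, at 34.7 CPM in starved and 0.927 CPM in control libraries. Their part in the ERCC1 value was not tested. ERCC4 averaged 18.8 ± 7.02 CPM in starved and 20.6 ± 8.62 CPM in control libraries (limma adjusted p = 0.908), and the ratio of ERCC1 to ERCC4 overlapped between groups; ERCC4 was named after its values were seen.

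XPA, which verifies the lesion, had 5.06, 0, 0, 6.10 and 0 CPM in starved libraries, against 21.2, 42.1, 39.8, 39.4 and 37.9 CPM in control libraries. Starved replicates 2, 3 and 5 held no count, and 4 counts in the starved group stood against 62 in the control group (log2 change -4.09, SE 0.72, limma adjusted p = 9.37e-05). DDB2, which finds ultraviolet lesions in chromatin, had 6.74, 0, 0, 6.10 and 5.31 CPM in starved libraries, against 28.2, 29.5, 19.9, 34.4 and 22.7 CPM in control libraries, without overlap (log2 change -3.09, SE 0.71, limma adjusted p = 0.00137). XPC, the damage sensor of the genome-wide branch, averaged 22.4 ± 15.2 CPM in starved and 28.4 ± 9.03 CPM in control libraries, and ERCC2, a helicase of TFIIH, averaged 4.46 ± 5.73 CPM in starved and 11 ± 10.5 CPM in control libraries; neither was called (limma adjusted p = 0.366 and 0.383).

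**Figure D4:**
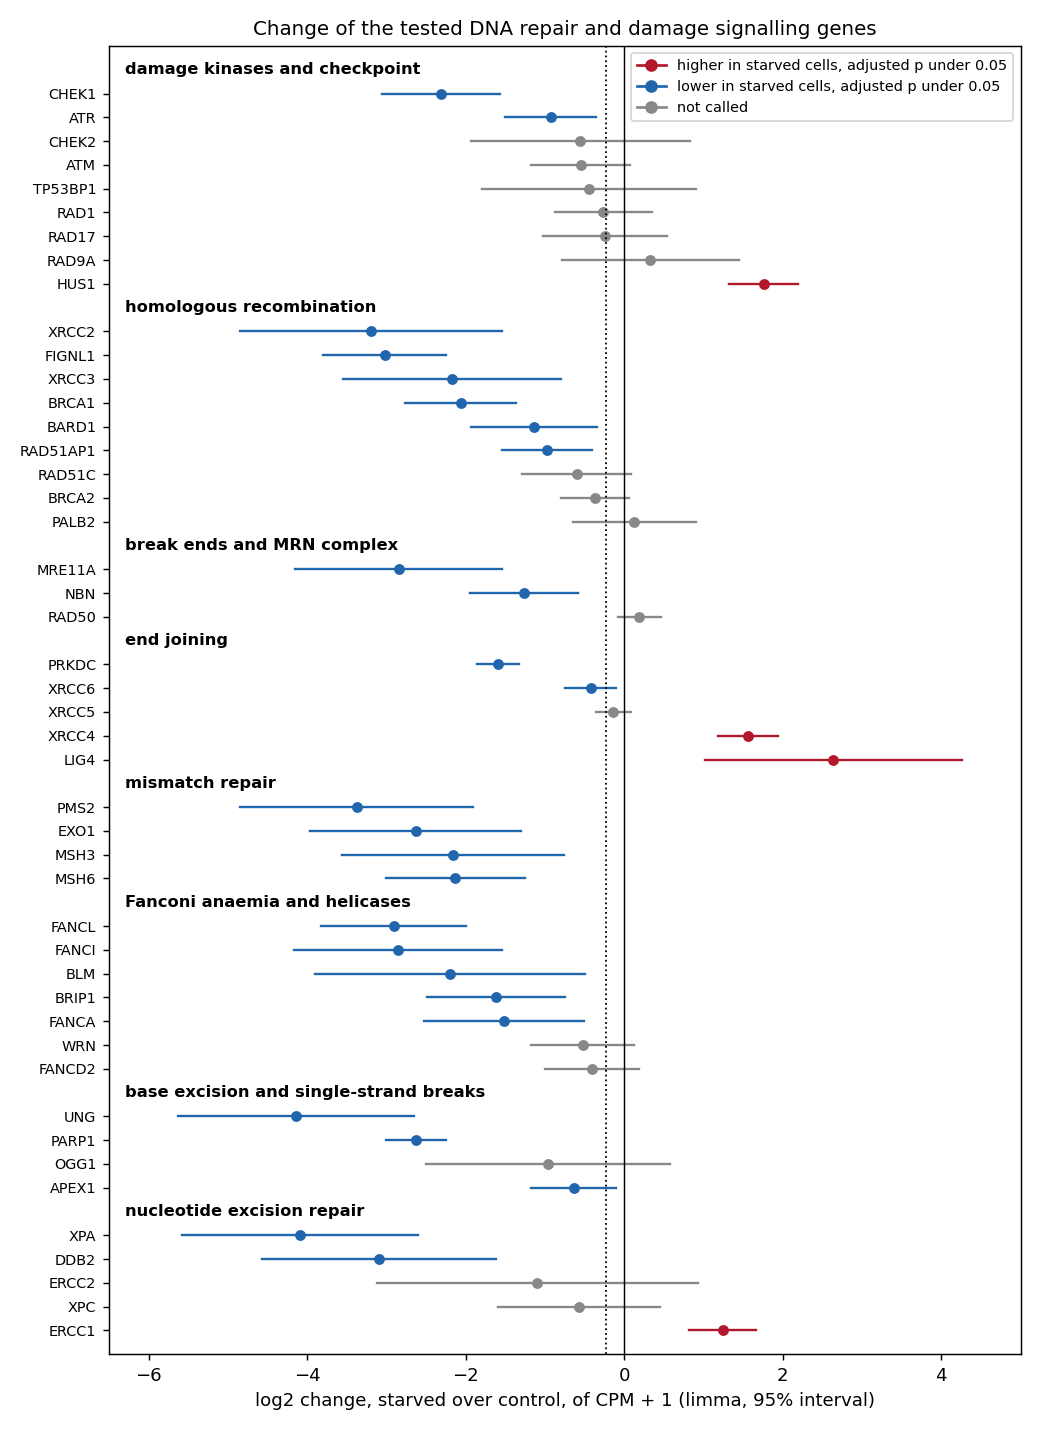
Log2 change (starved minus control, on log2(CPM + 1)) of the 46 tested genes with its 95% interval, grouped by role; red (higher) and blue (lower) points were called at a limma adjusted p under 0.05 and grey ones were not, and the dotted line is the median of all 11202 tested genes, -0.22. PARP1 and PRKDC have narrow intervals far below the line, and XPA and UNG lie furthest to the left with wide ones.

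The rest of the repair machinery was counted from lists of further genes. Of 110 tested genes, 36 fell (32.7%) and 13 rose (11.8%), with a median log2 change of -0.61. Among all 11202 tested genes 26.1% fell and 17.2% rose, with a median of -0.22. Each further list stands against these shares. Of 20 other homologous recombination genes, 11 were lower (55%) and 2 higher (10%). The translocase RAD54B had 0 counts in starved and 36 counts in control libraries, at least 10.1-fold lower against a floor of 3 counts over the starved group. BRCC3, a deubiquitinase of the BRCA1-A complex, averaged 9.67 ± 7.33 CPM in starved and 81.6 ± 10.6 CPM in control libraries (limma adjusted p = 5.96e-05).

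Of 14 other checkpoint genes, 6 were lower (42.9%) and 1 was higher (7.14%). CLSPN, the adaptor through which ATR activates CHEK1, averaged 3.61 ± 2.63 CPM in starved and 83.9 ± 23.6 CPM in control libraries (limma adjusted p = 1.09e-06). Of 13 other base excision genes, 6 fell (46.2%) and none rose. NTHL1, a glycosylase for oxidised pyrimidines, averaged 5.94 ± 2.79 CPM in starved and 69.4 ± 17.3 CPM in control libraries. Of 5 other mismatch repair genes 3 fell (60%), among them LIG1, the ligase that seals replicated DNA. LIG1 averaged 6.05 ± 9.85 CPM in starved and 54.2 ± 12.1 CPM in control libraries. Of 17 other Fanconi anaemia genes, 4 fell (23.5%), close to the share over all genes, and UBE2T, the conjugating enzyme that works with FANCL, was among them at 14.3 ± 3.10 CPM in starved and 102.7 ± 26.4 CPM in control libraries.

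End joining, nucleotide excision and translesion synthesis had other counts. None of 10 other end joining genes fell and 1 rose (10%), DCLRE1C (Artemis, the nuclease that opens hairpins and works with DNA-PK). DCLRE1C averaged 72.3 ± 29.8 CPM in starved and 33.2 ± 10.2 CPM in control libraries (limma adjusted p = 0.00984). Of 18 other nucleotide excision genes 5 rose (27.8%) and 3 fell (16.7%). CCNH, the cyclin of the TFIIH kinase, averaged 120.6 ± 12.7 CPM in starved and 46.1 ± 8.76 CPM in control libraries (limma adjusted p = 1.14e-05), while DDB1, the partner of DDB2, averaged 29.4 ± 7.60 CPM in starved and 97.4 ± 15.7 CPM in control libraries (limma adjusted p = 8.41e-06). Of 13 translesion and direct reversal genes 4 rose (30.8%) and 3 fell (23.1%). UBE2B, with the smallest p, averaged 383 ± 53.8 CPM in starved and 122 ± 30.1 CPM in control libraries (limma adjusted p = 2.82e-08). HLTF fell, at 15.9 ± 10.2 CPM in starved and 77.6 ± 13.6 CPM in control libraries (limma adjusted p = 7.34e-05). POLK, a polymerase that copies past damaged bases, averaged 100.3 ± 10.2 CPM in starved and 38.4 ± 11 CPM in control libraries (limma adjusted p = 7.78e-05).

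Genes of DNA replication and mitosis were also mostly lower in starved cells. The shares called lower were 83.9% and 84.2%, against 26.1% of all tested genes. Of 31 tested replication genes 26 fell and none rose, and their summed level was 576 to 662 CPM in starved and 2040 to 2257 CPM in control libraries. PCNA, the sliding clamp of replication, averaged 26.1 ± 7.45 CPM in starved and 228.6 ± 11.3 CPM in control libraries (limma adjusted p = 8.87e-11). Of 19 mitosis and proliferation genes 16 fell and none rose, with a summed level of 1999 to 2232 CPM in starved and 3710 to 4176 CPM in control libraries. The part of fewer cycling cells in the changes of the repair genes was not tested. Of 14 tested targets of p53, the damage-responsive transcription factor, 5 rose (35.7%) and 1 fell (7.14%), against 17.2% and 26.1% of all genes. CDKN1A, the inhibitor of cyclin-dependent kinases, averaged 176 ± 29.4 CPM in starved and 14.2 ± 5.98 CPM in control libraries (limma adjusted p = 1.58e-09).

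**Figure D5:**
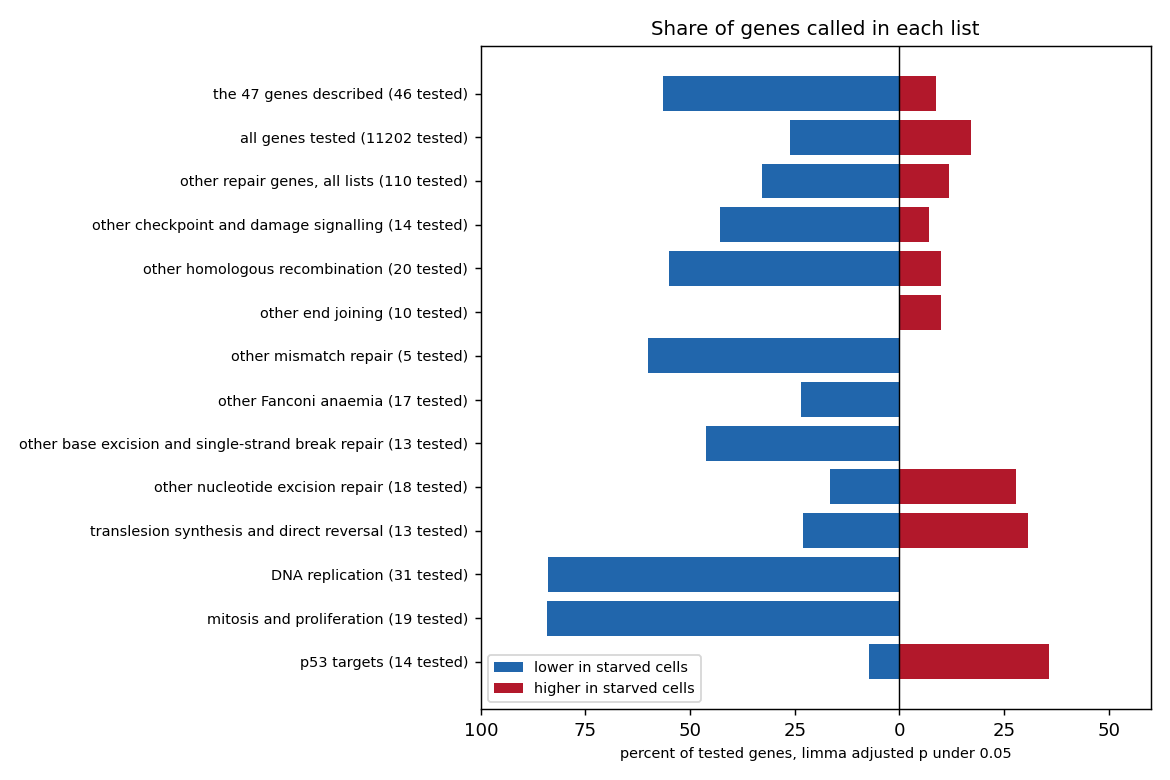
Share of tested genes called lower (bars to the left) and higher (bars to the right) in starved cells at a limma adjusted p under 0.05, for the 47 genes described, all genes tested and each further list. The 47 genes stand at 56.5% lower and 8.70% higher against 26.1% and 17.2% of all genes, and replication and mitosis lists have no gene called higher.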

How the data were processed

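RNA of AsPC-1 cells was made into libraries with the QIAseq UPX 3′ Transcriptome kit, per the labels' protocols. The authors deposited CPM values, scaled to 1000000 per library. Per the submitters' processing notes the build was hg19; what aligner, counter, annotation, molecular identifiers or strand setting was used is not given in the sources at hand. Whole counts were recovered from the deposited CPM by dividing each column by its smallest value above 0, and 100% of the quotients were whole within a relative tolerance of 1e-06.

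The two-sided test was limma-trend 3.58.1 (R 4.3.3) with the value log2(CPM + 1) and no covariate. It ran over the 11202 genes averaging 5 CPM or more, and p-values were adjusted by Benjamini and Hochberg's method over all of them, at a threshold of 0.05. With the pseudocount of 1, changes of low genes depend on the scale and can be smaller or, where libraries are at 0, larger than the ratio of the group means. Alternatives were pseudocounts of 0.5 and 5, filters of none and 20 CPM, scaling by TMM, by median of ratios and by quantiles, a replicate block, libraries left out, and count tests (edgeR 4.0.16 quasi-likelihood; DESeq2 1.42.0) run with the recovered counts. Exact 95% intervals on ratios of count sums, and floors of 3 counts, cover counting error only. Members and lists were chosen with earlier results of these data known. Values per library are given for up to 4 called members of a role with the smallest p (where 1 group averaged 10 CPM or more), for members whose role the results turn on, and up to 3 genes with the smallest p are named from each further list.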

Additional observations from a re-analysis of the deposited data

Results flagged for a closer look

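In 10 of 94 groups of 5 libraries examined (members and total counts, by group), 1 library lay far from the other 4. The criterion was Dixon's, at its 95% critical value of 0.71. Normally distributed values would pass it in about 1 in 20 groups, and members with few counts need not follow that rate. Starved replicate 1 had 593248 total counts, against 164008 to 215121 in the other starved libraries. In the same library CHEK1 was high, at 42.1 CPM against 9.30 to 18.3 CPM, and FANCD2 was low, at 27.0 CPM against 36.6 to 39.7 CPM. Starved replicate 2 was high in RAD1, at 64.5 CPM against 36.6 to 41.8 CPM, and in PALB2, at 74.4 CPM against 26.5 to 30.5 CPM. Starved replicate 4 was high in FANCL, at 12.2 CPM against 4.65 to 5.31 CPM, where it held 2 counts. Control replicate 1 was high in RAD17, at 56.4 CPM against 24.9 to 33.7 CPM, and low in XPA, at 21.2 CPM against 37.9 to 42.1 CPM. BLM was low in control replicate 3, at 12.4 CPM against 28.2 to 30.3 CPM, and UNG was high in control replicate 5, at 63.2 CPM against 27.3 to 35.8 CPM. CHEK1, FANCL, UNG and XPA were called lower in every alternative that tested them.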

How the results depend on the processing

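Over 21 alternatives, 19 to 26 members were called lower (19 with a filter at 20 CPM, 20 without control replicates 1 and 2) and 3 to 5 higher. Of the 30 called members 21 held their call in every alternative that tested them, 9 lost it at least once and 0 changed sign. The median log2 change of tested members was -1.16 with a pseudocount of 0.5, -0.87 with 5, -0.93 with a filter at 20 CPM, -0.77 with quantile normalization, -0.91 with edgeR, -0.93 with DESeq2 and -1.10 to -0.90 with a library left out; the cause was not tested. Targets of p53 called higher numbered 8 with a pseudocount of 5, quantile normalization or edgeR, and those called lower 3 without a filter and 1 to 3 with a library left out. edgeR called 1 mitosis gene higher. Signs changed only for members that were not called: CHEK2 (0.079) and TP53BP1 (0.37) without control replicates 1 and 2, TP53BP1 (0.040) with quantile normalization, RAD17 (0.023) with edgeR, RAD9A (-0.014) without control replicate 3, and PALB2 without control replicates 1 and 2 (-0.28), starved replicate 2 (-0.15), control replicate 1 (-0.0033) or control replicate 2 (-0.041). With 1 library left out, RAD9A ranged from -0.014 to 0.55 and PALB2 from -0.15 to 0.25. Same-numbered libraries did not deviate together (r from -0.016 to 0.023), so the numbers were not taken as pairs; with a replicate block 26 members were called lower and 4 higher, and all genes numbered 2886 lower and 1915 higher. Low counts limit the rarest members: 3 counts in a library correspond to 5.06 to 21.2 CPM.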
